A study of Mus musculus with 16 samples.

Results

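The genotype by stroke interaction in brain endothelial cells (bECs) is, for each gene, the change after middle cerebral artery occlusion (MCAo) in YT-iKO bECs minus the change after MCAo in CTRL bECs. A positive value means that the response was higher in YT-iKO and a negative value that it was lower, on the log2 scale. The genes ranked here averaged 10 CPM (a count scaled to the library's total) or more over the 16 libraries, which held for 9123 of 37003 genes. Just inside that limit was Gm43379 with a mean of 10.0071 CPM, and just outside was Mir5125 with 9.9999 CPM. The genes were chosen by the mean over all libraries and not by the interaction, but a gene can reach that mean through the group or library that also sets its interaction. Without its highest library 131 of the 9123 genes averaged under 10 CPM, and 14 had a group mean of 10 CPM or more in 1 group only.

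The 16 libraries formed 4 groups of 4. YT-iKO mice carried Pdgfb-iCreER-eGFP Tg/+, Yap fl/fl and Taz fl/fl, and CTRL mice were littermates with the same floxed alleles of Yap and Taz but without the Cre transgene. Adult mice of both genotypes were given tamoxifen before surgery, so the drug was common to all groups. RNA came from DAPI-, CD45-, CD31+ cells sorted 72 h after a sham operation or after 30 min of MCAo. Cre was driven by the Pdgfb promoter, so deletion was limited to cells that use it, and each library was a pool of several mice, so the spread between libraries is a spread between pools. The dissected tissue included the MCA territory of the ischemic side and the matching area of the other hemisphere. In such bulk samples a smaller share of cells and less RNA per cell cannot be told apart.

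YAP and TAZ (encoded by Yap1 and Wwtr1) are transcriptional coactivators that enter the nucleus when the Hippo kinases are inactive and act with TEAD factors on genes of growth, cytoskeleton and matrix. In endothelium they are known for roles in vessel sprouting and barrier formation. Cerebral ischemia activates endothelial cells, which raise adhesion molecules, acute-phase genes and coagulation regulators. The interaction asks whether this activation took a different course without YAP and TAZ.

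The libraries held 11418262 to 23074547 counts, with a median of 16441012. The sorted cells had the profile of endothelium, since the 16 endothelial markers summed to between 17890 and 25280 CPM in every library, and 10 pericyte markers summed to 631 to 1424 CPM. Libraries also differed in an even background of counts, measured over 1466 olfactory, vomeronasal and taste receptor genes that bECs are not known to use. This density ran from 0.0308 to 0.576 CPM per kilobase of exon, an 18.7-fold range. The extremes both lay in the YT-iKO MCAo group, with 0.147, 0.576, 0.443 and 0.0308 CPM per kilobase in replicates 1 to 4. Xist exceeded 100 CPM in 1 library of CTRL MCAo and in 2 libraries of each of the other groups, so that every group held pools with and without it.

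The deletion was visible in every YT-iKO library, and its extent did not differ detectably between surgeries. Yap1 (chr9:7931999-8004596, minus strand) stood at 105, 105, 101 and 106 CPM in CTRL sham and at 102.5, 100.5, 101 and 115 CPM in CTRL MCAo. In YT-iKO it stood at 49.95, 55.6, 51.6 and 45.9 CPM after sham and at 42.5, 50.1, 49.6 and 45.9 CPM after MCAo. No YT-iKO library reached the range of CTRL, and the interaction was -0.12 (SE 0.10, 95% interval -0.33 to 0.10). Wwtr1 (chr3:57455649-57575910, minus strand) ranged from 240.0 to 346.5 CPM over the 8 CTRL libraries and from 60.2 to 102 CPM over the 8 YT-iKO libraries, with an interaction of -0.13 (SE 0.17, 95% interval -0.49 to 0.24). Part of the exons of Yap1 is shared with the antisense gene Gm20416, and whether counting used strand is not given in the sources used here.

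No gene had an interaction that passed the test. Of 31085 genes tested with edgeR's quasi-likelihood test, 0 had an adjusted p under 0.1 (0%), and 199 (0.64%) had an unadjusted p under 0.05. Among the 9123 genes with a mean CPM of at least 10, 0 were called, and 129 (1.41%) had an unadjusted p under 0.05, of which 46 were positive (0.504%) and 83 negative (0.91%), while 47.4% of the 9123 genes had a value above 0. P-values spread evenly would put a share of 0.05 under that threshold. The shares of 0.64% and 1.41% were well below it, and the reason was not tested. The p-values of this fit thus ran high, so the lack of calls does not show equal responses. The standard errors and intervals come from the same fit. With DESeq2, limma-voom with sample quality weights and limma-trend the count was likewise 0 at an adjusted p under 0.1, with 20, 135 and 130 of the 9123 genes at an unadjusted p under 0.05. The division of the small p-values by direction depended on scaling and on the libraries included. Positive genes made up 35.7% of them with factors taken from the abundant genes and 68.2% with factors taken from all genes tested, a choice that moved the median interaction of the 9123 genes by 0.15 and brought 84.2% of them above 0. With DESeq2, which moved the median by 0.10, they made up 60%. Without the 3 libraries of highest receptor density, 567 genes had such a p and positive genes made up 54.3% of them. These were YT-iKO MCAo 2 and 3 and YT-iKO sham 3, so the fit without them kept only replicates 1 and 4 of YT-iKO MCAo.

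The precision of the interaction differed between genes. The median standard error of an interaction was 0.16, with a 10th percentile of 0.11 and a 90th percentile of 0.28. For 8696 of the 9123 genes (95.3%) the 95% interval lay between -1 and 1, and for 6885 (75.5%) it lay between -0.58 and 0.58. The 427 genes whose interval reached past 1 or -1 were lower in level, with a median of 16.2 CPM against 38.5 CPM for the others. The interactions themselves were small, with a median of -0.01, a median size of 0.08, a 95th percentile of the size of 0.34 and a 99th percentile of 0.58. Only 16 genes had an interaction beyond 1 in size, and 3 of them (Snord15a, Igfbp5 and Serpina3n) reached the ranking limit through 1 group only and fell short of it without their highest library.

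The response to MCAo itself was plain in both genotypes. In CTRL 508 of the 9123 genes were called (5.57%), of which 380 rose (4.17%) and 128 fell (1.4%). In YT-iKO 506 were called (5.55%), of which 361 rose (3.96%) and 145 fell (1.59%). These comparisons share no library. They had 320 genes in common, which is 63% of the CTRL list and 63.2% of the YT-iKO list. For the 188 genes called in CTRL alone the change had a median size of 0.53 in CTRL, against 0.32 in YT-iKO, and 187 of them had the same sign in YT-iKO. For the 186 genes called in YT-iKO alone the median was 0.54 in YT-iKO and 0.33 in CTRL, and all 186 had the same sign in CTRL. Being chosen on the response of 1 genotype makes that response the larger one, so the order of these medians is fixed by the choice. The interaction was called for 0 of the 188 and 0 of the 186 genes. An unadjusted p under 0.05 was found for 17 and 23 of them, against 1.41% of all 9123 genes. Choosing genes called in 1 genotype only also raises these counts, so nothing is concluded from them.

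Averaging the response over both genotypes gives a choice of genes that does not fix the sign of the interaction. On that average 1400 of the 9123 genes were called (15.3%), with 884 higher (9.69%) and 516 lower (5.66%) after MCAo. All 1400 had the same sign in both genotypes, which the choice on the average largely fixes. The change was larger in YT-iKO for 731 of them (52.2%, against 49.8% over all 9123 genes). An unadjusted interaction p under 0.05 was found for 42 of the 1400 (1.41% over all 9123 genes). The genes that rose had median changes of 0.45 in CTRL and 0.45 in YT-iKO, and the genes that fell had medians of -0.35 and -0.35. With factors from all genes tested 252 genes were called on the average, 71% of them higher against 63.1% in the fit described here. With DESeq2 555 were called, 62.9% of them higher.

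**Figure D1:**
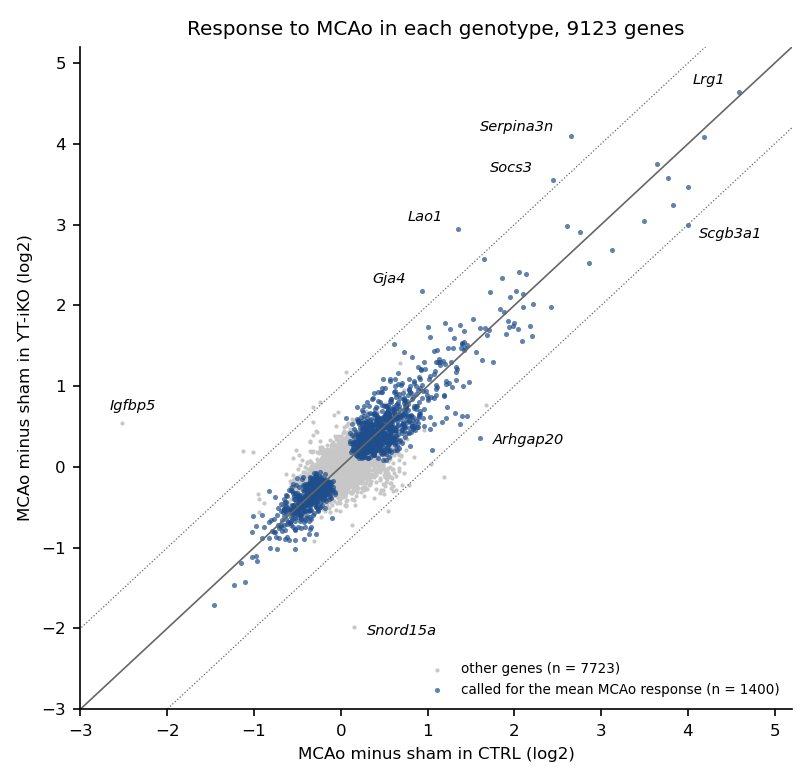
Change after MCAo in CTRL (horizontal axis, log2) and in YT-iKO (vertical axis, log2) for the 9123 genes, with the 1400 genes called for the mean response in blue and the others in grey. The solid line marks equal responses and the dotted lines a difference of 1, and only 16 genes lie outside the dotted lines.

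The largest responses of single genes are given next by genotype. Lrg1, which encodes a secreted glycoprotein that modulates TGF-beta signalling, had 2.69 to 7.47 CPM in CTRL sham and 3.17 to 8.68 CPM in YT-iKO sham. After MCAo it stood at 146, 81.2, 60.7 and 114.5 CPM in CTRL and at 233, 69.7, 63.2 and 191 CPM in YT-iKO. The MCAo libraries of both genotypes lay above every sham library and overlapped each other, with changes of 4.59 and 4.64 and an interaction of 0.06 (SE 0.66). Both changes passed the test, as did those of the 3 genes that follow. For the leukocyte adhesion genes Selp and Sele (P- and E-selectin) and for Ackr1, the atypical chemokine receptor of venules, the changes were 4.00 against 3.46, 2.76 against 2.90, and 3.77 against 3.58. Exons of Selp overlap Gm16548 on the other strand, and those of Ackr1 overlap Cadm3 on the same strand.

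Among the 20 genes with the largest mean rise, which were picked by that size after the values were seen, 11 had the larger change in YT-iKO, the median interaction was 0.05 and 18 of the 20 intervals included 0. Their intervals were wide, with a median standard error of 0.56, and only 2 of the 20 lay within -1 to 1. Besides the examples above, these 20 held the secretoglobin Scgb3a1, with changes of 4.01 in CTRL and 2.99 in YT-iKO. Among those with the larger change in YT-iKO were Socs3, a feedback inhibitor of STAT3 (2.44 against 3.55), Serpina3n (2.66 against 4.10) and Lao1 (1.35 against 2.94). The CTRL changes of Serpina3n and Lao1 did not pass the test (adjusted p = 0.103 and 0.662). Of all 103 called genes with a mean rise over 1, 61 had the larger change in YT-iKO (49.5% over all 884 genes that rose), and the median interaction was 0.08. The interval included 0 for 98 of the 103, and 5 had an unadjusted p under 0.05 (1.41% over all 9123 genes). Factors from all genes tested moved the median interaction of the 9123 genes by 0.15, more than this median, so the count by direction depends on scaling. Among the 10 genes with the largest mean fall, Mmp15, a membrane-bound metalloproteinase, changed by -1.10 in CTRL and -1.43 in YT-iKO. For 8 of these 10 the fall was larger in YT-iKO, with all 10 intervals including 0.

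Genes with a genotype difference were compared between the operations in the same way. The mean genotype difference was called for 527 of the 9123 genes (5.78%), with 357 lower (3.91%) and 170 higher (1.86%) in YT-iKO, and every one had the same sign after sham and after MCAo, which the choice on the mean largely fixes. The difference was the larger after MCAo for 330 of them (62.6%, against a share of 51.4% over all 9123 genes), namely for 209 of the 357 lower genes and 121 of the 170 higher genes. The median interaction was -0.03 for the lower and 0.07 for the higher genes. Factors from all genes tested moved the median of the 9123 genes by 0.15, more than either. These counts can therefore depend on scaling, and they were not repeated with other factors. Tested after each operation alone, 116 genes (1.27%) were called after sham and 174 (1.91%) after MCAo. Amotl2, an angiomotin-family scaffold that binds YAP, differed by -1.86 after sham and -1.95 after MCAo. Apod, which encodes apolipoprotein D, a lipid-binding secreted protein, is an example of a gene with both effects side by side. It stood at 61.4, 58.55, 60.02 and 50.7 CPM in CTRL sham and at 214, 247.5, 192 and 332 CPM in CTRL MCAo. In YT-iKO it stood at 14.7, 13.0, 20.5 and 14.7 CPM after sham and at 66.8, 58.5, 72.35 and 76.7 CPM after MCAo. Sham and MCAo were apart in each genotype and the genotypes were apart after each operation, while CTRL sham overlapped YT-iKO MCAo. The changes of 2.09 in CTRL and 2.14 in YT-iKO left an interaction of 0.04 (SE 0.22, 95% interval -0.42 to 0.51).

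The genes with the smallest unadjusted p were taken next, 10 in each direction. None was called, and since their p chose them it is given as a description.

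Arhgap20, a GTPase-activating protein, had the smallest p of all genes with a mean CPM of at least 10. It lies at chr9:51765337-51853856 on the plus strand and shares exons with the antisense gene Arhgap20os. In CTRL it stood at 26.5, 21.1, 20.6 and 22.8 CPM after sham and at 78.7, 66.4, 53.7 and 77.9 CPM after MCAo. In YT-iKO it stood at 17.7, 15.5, 21.6 and 16.5 CPM after sham and at 17.6, 31.7, 22.5 and 19.9 CPM after MCAo. Every CTRL MCAo library lay above every other library, whereas the YT-iKO groups overlapped. Arhgap20 rose by 1.61 after MCAo in CTRL (SE 0.16, adjusted p = 8.9e-05), whereas its change in YT-iKO was 0.36 (SE 0.17, adjusted p = 0.726). The interaction was -1.25 (SE 0.23, 95% interval -1.74 to -0.76, unadjusted p = 5.4e-05, adjusted p = 1). Without YT-iKO MCAo replicate 2 the interaction was -1.44 with an adjusted p of 0.0565, and without the 3 libraries of highest receptor density it was -1.42 with an adjusted p of 0.0696, so the call turned on those libraries.

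Gmpr and Scgb3a1, which like Arhgap20 rose by more than 1 in CTRL, also had a lower response in YT-iKO. Gmpr (chr13:45507444-45553800, plus strand), the reductase that converts GMP to IMP, stood at 20.02, 17.3, 20.6 and 21.02 CPM in CTRL MCAo and at 11.1, 12.95, 8.94 and 13.1 CPM in YT-iKO MCAo. The sham libraries of both genotypes ranged together from 5.596 to 9.63 CPM, and the MCAo groups did not overlap. Its interaction was -0.82 (SE 0.26, unadjusted p = 0.00615), and some of its exons overlap Atxn1 on the other strand. Scgb3a1 (chr11:49663610-49665118, plus strand), a small secreted protein of the secretoglobin family, went from 3.40 to 4.46 CPM in CTRL sham to 51.3, 57.6, 53.5 and 82.0 CPM in CTRL MCAo. In YT-iKO it went from 2.96 to 5.80 CPM after sham to 32.7, 26.4, 24.0 and 54.1 CPM after MCAo. Both genotypes responded strongly, by 4.01 and 2.99, and only replicate 4 of YT-iKO MCAo reached the range of CTRL MCAo. The interaction was -1.01 (SE 0.35, unadjusted p = 0.0105), and over 29 alternative fits it ran from -1.32 to -0.53.

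In the other genes of this direction the levels differed less between groups. Ppp2r5a, a regulatory subunit of protein phosphatase 2A, rose in CTRL by 0.31 (adjusted p = 0.0783), from 201 to 217 CPM after sham to 248 to 292 CPM after MCAo. In YT-iKO it stood at 156 to 196 CPM after sham and at 161 to 186 CPM after MCAo, a change of -0.02, with an interaction of -0.33 (SE 0.11). Src, the tyrosine kinase, stood at 17.4 to 22.6 CPM in CTRL MCAo and at 11.8 to 16.1 CPM in YT-iKO MCAo, without overlap, and its interaction was -0.47 (SE 0.16). Cd300lg, a sialomucin-like receptor of capillary and venous endothelium, had an interaction of -1.09 (SE 0.34), but its groups overlapped in all pairwise comparisons between surgeries and between genotypes. Magix, which encodes a PDZ-domain protein, fell by 0.83 in YT-iKO (adjusted p = 5.5e-04) against a change of -0.36 in CTRL (adjusted p = 0.161). Bri3, 2310061I04Rik and the unplaced gene CAAA01118383.1 had interactions of -0.62, -0.54 and -0.59, all at a mean of 10.2 to 13.0 CPM.

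**Figure D2:**
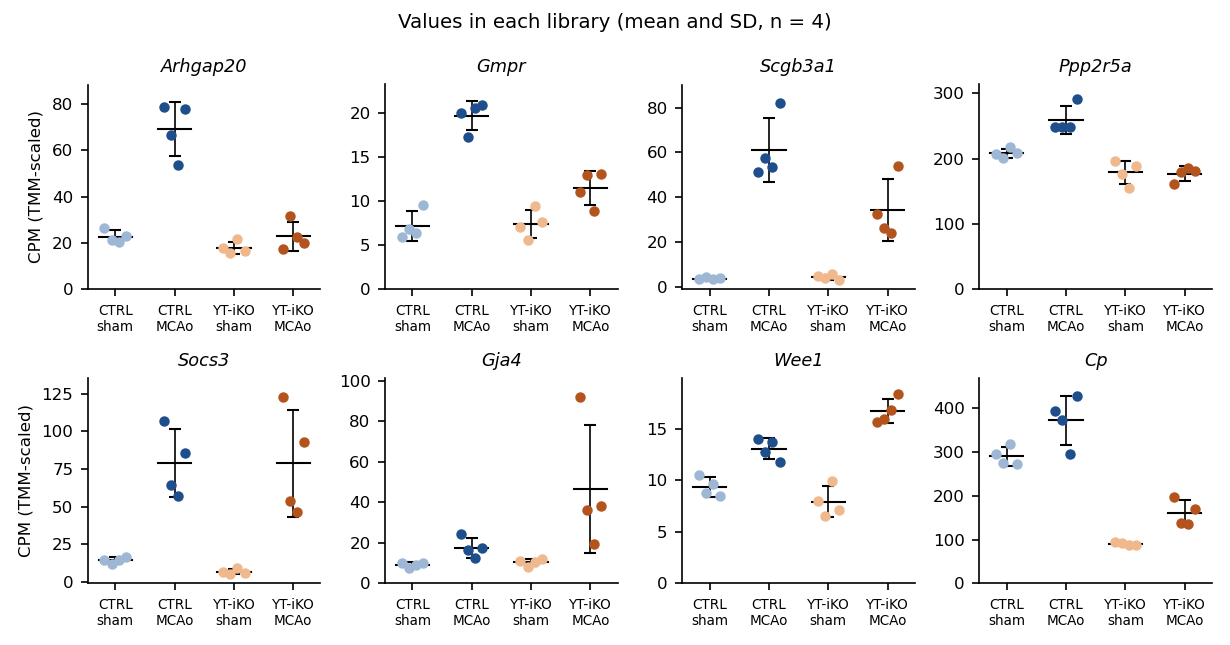
CPM scaled by the TMM method in each library (points) for 8 genes, with the mean and SD of the 4 libraries of each group. Arhgap20 and Gmpr separate CTRL MCAo from the other groups, while Socs3 reached like levels after MCAo in both genotypes from a lower level in YT-iKO sham.

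In the positive direction were the acute-phase genes Socs3 and Cp, whose sham libraries were all lower in YT-iKO than in CTRL. Socs3 (chr11:117966079-117970047, minus strand), the feedback inhibitor of STAT3 signalling, stood at 14.5, 12.2, 14.8 and 16.6 CPM in CTRL sham and at 6.78, 5.12, 9.27 and 6.13 CPM in YT-iKO sham. After MCAo it stood at 107, 64.6, 57.4 and 85.9 CPM in CTRL and at 123, 54.0, 46.4 and 92.6 CPM in YT-iKO. The sham groups did not overlap, although the genotype difference there was not called (-1.11, adjusted p = 0.239), and the MCAo groups overlapped throughout (0.01). Socs3 rose by 2.44 in CTRL and 3.55 in YT-iKO, an interaction of 1.11 (SE 0.39, 95% interval 0.30 to 1.93, unadjusted p = 0.0105). Over 29 alternative fits the interaction of Socs3 ran from 0.82 to 1.72. Cp (chr3:19957054-20009145, plus strand), the ferroxidase ceruloplasmin, was lower in YT-iKO by 1.70 on the log2 scale after sham (adjusted p = 9.1e-07) and by 1.21 after MCAo (adjusted p = 4.3e-05). Its levels went from 274 to 319 CPM after sham to 296 to 429 CPM after MCAo in CTRL, and from 87.0 to 93.4 CPM to 136 to 198 CPM in YT-iKO. Its rise after MCAo was called in YT-iKO (0.84, adjusted p = 0.00115) and not in CTRL (0.36, adjusted p = 0.251), and the interaction was 0.48 (SE 0.17, unadjusted p = 0.0107). Exons of Cp overlap Hps3 on the other strand.

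Kinases made up 2 more of these genes. Wee1, which restrains entry into mitosis by phosphorylating CDK1, stood at 11.8 to 14.0 CPM in CTRL MCAo and at 15.7 to 18.4 CPM in YT-iKO MCAo, without overlap. It rose by 1.08 in YT-iKO (adjusted p = 5.7e-04), the change in CTRL was 0.48 (adjusted p = 0.142), and the interaction was 0.60 (SE 0.20). Bmx, a Tec-family tyrosine kinase of arterial endothelium, rose by 0.61 in YT-iKO (adjusted p = 0.0175) against a change of 0.07 in CTRL (adjusted p = 0.93), from sham levels of 29.9 to 36.0 CPM in YT-iKO that lay below the 39.8 to 42.1 CPM of CTRL. Its interaction was 0.54 (SE 0.17). Zmat3, an RNA-binding zinc-finger protein induced by p53, and the zinc-finger gene Zfp46 rose in YT-iKO by 0.58 and 0.86, with interactions of 0.39 (SE 0.12) and 0.48 (SE 0.17). Afg3l2, a subunit of a mitochondrial inner-membrane protease, and the golgin-associated Blzf1 changed by -0.22 and -0.29 in CTRL and by 0.07 and 0.04 in YT-iKO, none of which was called. Gm340 and 6430548M08Rik completed the 10, with interactions of 0.34 and 0.56.

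**Figure D3:**
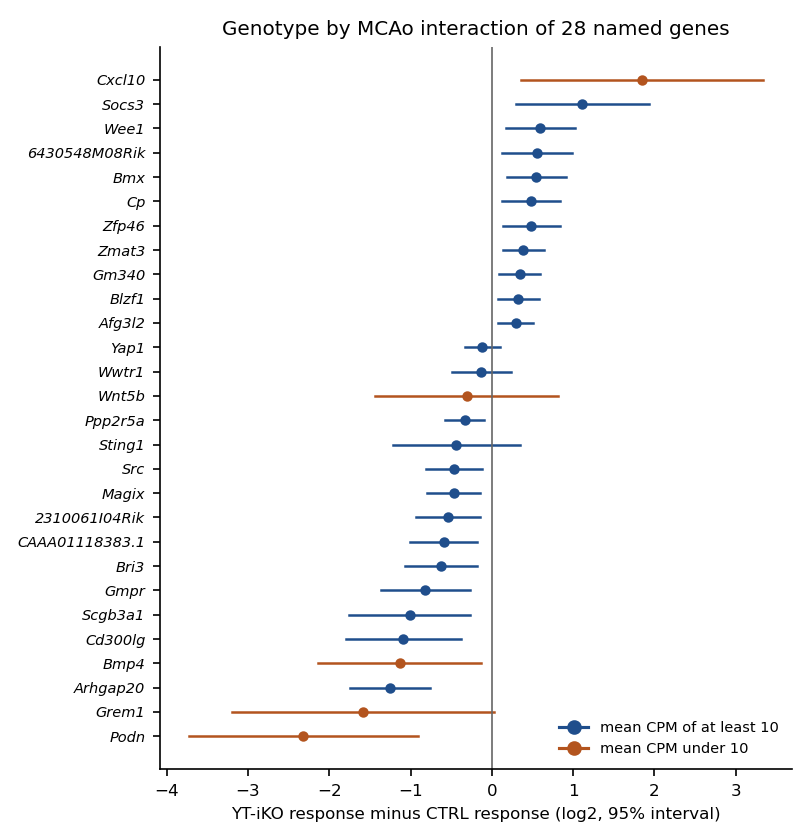
Interaction on the log2 scale (point) with its 95% interval (line) for the 28 genes named by rule, in blue with a mean CPM of at least 10 and in orange below it. The interval of Arhgap20, from -1.74 to -0.76, lies farthest from 0 relative to its width, and the intervals of Yap1, Wwtr1, Wnt5b, Sting1 and Grem1 include 0.

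Several genes whose response to MCAo the study describes by genotype were measured at low levels. The secreted signalling genes Bmp4, a ligand of the BMP family, Podn, a small leucine-rich proteoglycan, and Grem1, a BMP antagonist, had means of 3.28, 4.31 and 1.97 CPM and so fell outside the ranking. Bmp4 stood at 6.78, 7.46, 5.64 and 6.34 CPM in CTRL MCAo and between 1.32 and 3.40 CPM in every other library. Over all 31085 genes tested 1.83% were called for MCAo in CTRL and 1.75% in YT-iKO. Bmp4 rose in CTRL by 1.48 (adjusted p = 0.0421), its change in YT-iKO was 0.35 (adjusted p = 1), and the interaction was -1.13 (SE 0.48, unadjusted p = 0.0297). Podn stood at 1.70 to 1.97 CPM in CTRL sham and at 5.39, 11.4, 8.46 and 8.17 CPM in CTRL MCAo. In YT-iKO it stood at 3.02, 1.69, 6.15 and 4.27 CPM after sham and at 2.46, 6.43, 3.99 and 0.863 CPM after MCAo, so the YT-iKO groups overlapped. Its interaction was -2.32 (SE 0.67, unadjusted p = 0.00323, adjusted p = 1). With the log2 receptor density of each library as a covariate it became -2.10 with an adjusted p of 0.0262, the only gene called in that fit, and among YT-iKO libraries its level was highest in replicates 2 of MCAo and 3 of sham, the libraries of highest receptor density.

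Grem1 and Wnt5b, a ligand of the Wnt family, had interactions of -1.58 (SE 0.76) and -0.31 (SE 0.53), and both had intervals that included 0. With 1 library left out the Wnt5b value lay between -0.74 (YT-iKO MCAo 2 omitted) and -0.02 (YT-iKO sham 3 omitted). Tnfsf8, the ligand of CD30, which belongs to the extracellular genes described below and was added here after its values were seen, stood at 11.2, 13.9, 8.80 and 8.57 CPM in CTRL MCAo and at 2.94, 4.49, 4.31 and 3.00 CPM in YT-iKO MCAo, an interaction of -2.11 (SE 0.65, unadjusted p = 0.00475). The chemokine gene Cxcl10 went the other way. It stood at 1.76, 2.49, 1.54 and 1.66 CPM in CTRL MCAo and at 2.55, 7.28, 14.7 and 2.68 CPM in YT-iKO MCAo, while the sham libraries ranged from 0.835 to 1.91 CPM. Its rise was called in YT-iKO (2.46, adjusted p = 0.0236) and not in CTRL (0.61, adjusted p = 0.93), with an interaction of 1.85 (SE 0.70, unadjusted p = 0.0182). The 2 YT-iKO MCAo libraries with the most Cxcl10 were those of highest receptor density in the group, and with that density as a covariate the interaction was 1.95. Without the 3 libraries of highest receptor density, which include both, the interaction of Cxcl10 was 0.77. Exons of Cxcl10 overlap Art3, and those of Bmp4 overlap Gm15217, on the other strand.

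Sting1, the adaptor that senses cyclic dinucleotides made by cGAS, rose in both genotypes. It stood at 29.1, 26.1, 21.1 and 27.2 CPM in CTRL MCAo and at 22.7, 22.0, 12.1 and 25.5 CPM in YT-iKO MCAo, above all sham libraries, which ranged from 3.06 to 7.88 CPM. The changes were 2.42 and 1.98, and the interaction of -0.44 (SE 0.37, 95% interval -1.22 to 0.34) turned to 0.04 without the 3 libraries of highest receptor density. The other members of the cGAS-STING list with a mean CPM of at least 10, Tbk1, Nfkb1, Irf3 and Rela, had interactions from -0.11 to 0.19.

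Some of the largest interactions rested on 1 or 2 libraries. These genes were named after their values were seen. Igfbp5, an IGF-binding protein, had the largest positive value, 3.07, because CTRL sham replicate 4 held 130.2 CPM against 2.86 to 3.69 CPM in the other CTRL sham libraries. The small nucleolar RNA gene Snord15a had the largest negative one, -2.13, because YT-iKO sham replicate 2 held 79.3 CPM against 5.44 to 7.71 CPM in the others of its group. Serpina3n, an acute-phase protease inhibitor, stood at 112, 8.80, 8.15 and 32.8 CPM in YT-iKO MCAo against 4.44 to 7.70 CPM in CTRL MCAo, and Lao1, an L-amino-acid oxidase, at 118, 10.7, 21 and 93.0 CPM against 8.51 to 17.2 CPM. In both the high values were those of replicates 1 and 4, which were the deepest libraries of the group with 23074547 and 21510934 counts and those of lowest receptor density. Lrg1 was likewise highest in replicates 1 and 4 of both MCAo groups. The interactions of 1.45 (SE 0.97) and 1.59 (SE 0.87) had intervals that included 0.

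Gja4, which encodes the arterial gap junction protein connexin 37, also held its highest value in replicate 1 of YT-iKO MCAo. It stood at 24.2, 16.4, 12.3 and 17.6 CPM in CTRL MCAo and at 92.2, 36.4, 19.3 and 38.3 CPM in YT-iKO MCAo, from 7.65 to 12.1 CPM in all sham libraries. The interaction was 1.24 (SE 0.47, 95% interval 0.24 to 2.23, unadjusted p = 0.0181), with the MCAo groups overlapping. The dioxin-inducible oxidase gene Cyp1b1 had an interaction of 1.11 (SE 0.51, 95% interval 0.03 to 2.18). Lama1, the laminin alpha 1 chain, had one of -1.31 (SE 0.65), with a 95% interval of -2.67 to 0.06 that included 0. The remaining genes beyond 1 in size that have not been given were Kif5a, Gm4951, H2-Q6, Xist and Eif2s3y, all with intervals that included 0, the last pair being sex-linked.

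**Figure D4:**
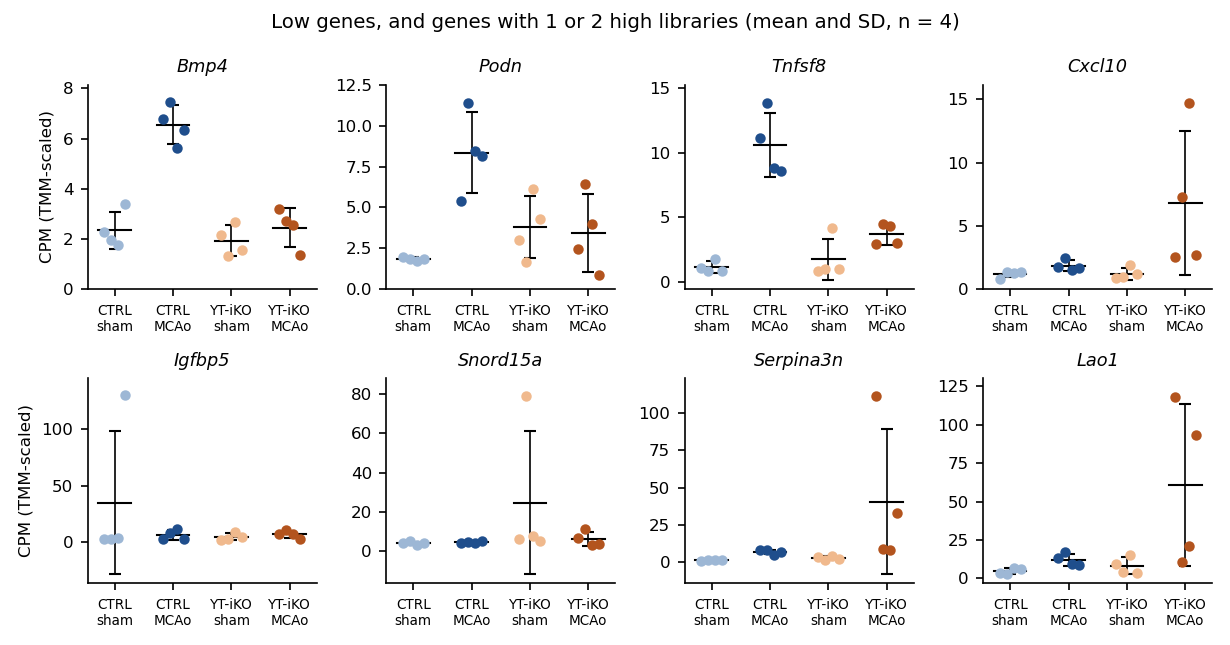
CPM scaled by the TMM method in each library (points) for 4 genes with a mean under 10 CPM (upper row) and 4 genes whose value rests on 1 or 2 libraries (lower row), with the mean and SD of the 4 libraries of each group. CTRL MCAo stands apart for Bmp4 and Tnfsf8, whereas Igfbp5 has 1 CTRL sham library at 130.2 CPM.

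Gene groups were described with 26 lists of pathways relevant to stroke and endothelium and 1 list of extracellular genes that the study picked on these libraries. No member of any list was called for the interaction, and of the 313 different genes in these and the cell type lists that reached 10 CPM on average, 170 had a value above 0. Over all 9123 genes 47.4% were above 0. An unadjusted p under 0.05 was found for 5 of the 313, near the 1.41% over all 9123 genes, namely for Angpt2, Nrp2, Socs3, Cp and Ctsh, the last from the study's list only. Members are called ranked where they averaged 10 CPM or more, and the counts and medians of each list are those of its ranked members. The list medians ran from -0.06 for the cGAS-STING pathway to 0.25 for complement, beside -0.01 for all 9123 genes. These medians were not stable: relative to all genes, 24 of the 26 lists with at least 3 ranked members changed sign in at least 1 alternative fit, and the acute-phase and complement lists were the exceptions. The cGAS-STING median was -0.06 relative to all genes and turned to 0.07 when YT-iKO sham replicate 2 was omitted, and the complement median of 0.25 ran from 0.06 to 0.33 with 1 library left out and was 0.56 with the 3 libraries of highest receptor density omitted. Complement had only 3 ranked members of 11 listed, of which C4b, a component of the classical pathway, had an interaction of -0.84 (SE 0.44) and Cd59a, which restrains complement, had 0.25 (SE 0.24).

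**Figure D5:**
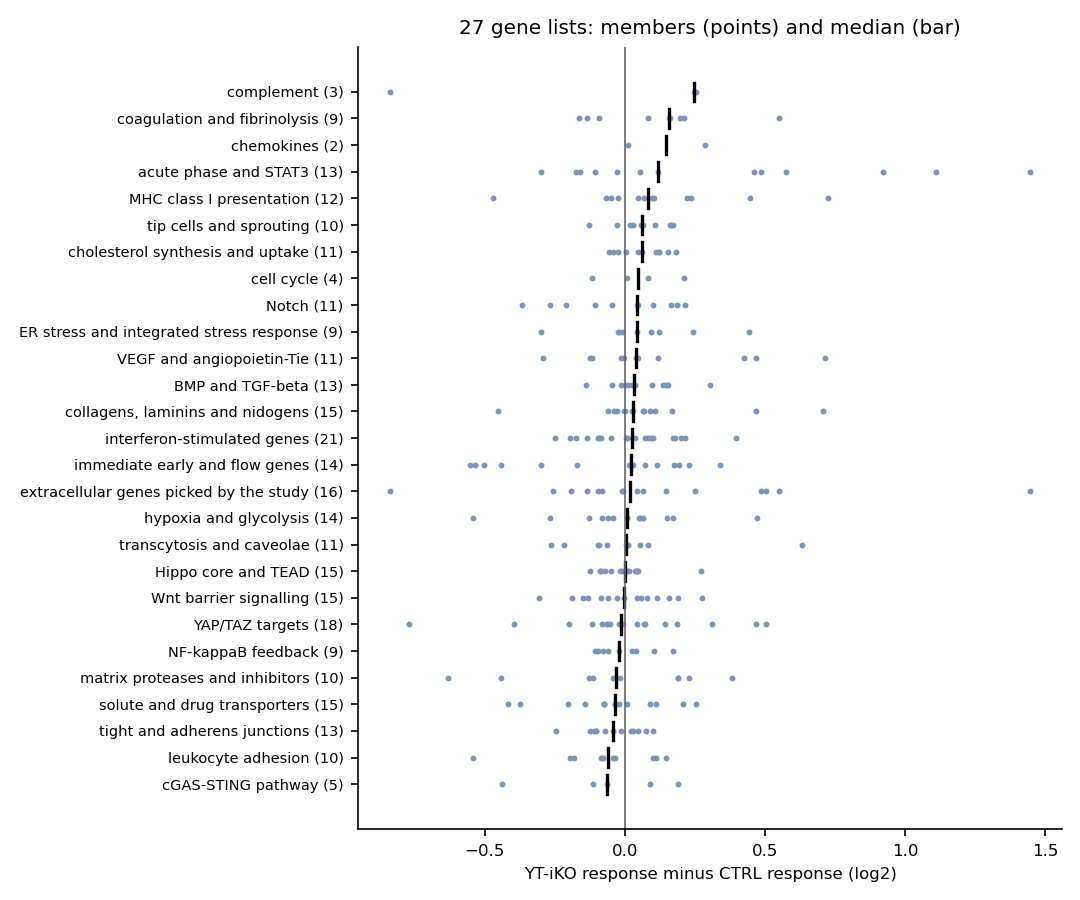
Interaction on the log2 scale of the members with a mean CPM of at least 10 (points) and their median (bar) in 27 lists, with the number of members in parentheses. The medians lie between -0.06 and 0.25, and the highest point is Serpina3n at 1.45, a member of both the acute-phase list and the list of extracellular genes.

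Among inflammatory lists, members of the acute-phase, adhesion and NF-kappaB lists were called as higher after MCAo in each genotype tested alone, with 9, 5 and 5 genes in CTRL and 11, 4 and 5 in YT-iKO, where 4.17% and 3.96% of all 9123 genes were called as higher. Of the interferon and MHC class I lists 0 were called in either genotype. Of the 14 acute-phase and STAT3 genes, 13 were ranked and 12 of them rose in the mean response (9.69% over all 9123 genes), with median changes of 1.00 in CTRL and 0.93 in YT-iKO. Their interactions had a median of 0.12, with 8 above 0. Relative to all genes this median was 0.13. With 1 library left out it was lowest at 0.07 (YT-iKO sham 2 omitted) and highest at 0.42 (YT-iKO sham 1 omitted), and it was 0.68 with the 3 libraries of highest receptor density omitted. That last fit kept only replicates 1 and 4 of YT-iKO MCAo, those with the highest Lrg1, Lcn2 and Serpina3n of the group. The interactions ranged from -0.30 for Junb, an AP-1 factor, to 1.45 for Serpina3n. Lcn2, the siderophore-binding lipocalin that neutrophils also carry, stood at 25.02 to 32.1 CPM in CTRL MCAo and at 97.8, 24.5, 29.95 and 49.7 CPM in YT-iKO MCAo, and its interaction was 0.92 (SE 0.53). The sum of 10 monocyte and neutrophil markers, Lcn2 among them, went in CTRL from 14.5 to 19.8 CPM after sham to 36.3 to 48.3 CPM after MCAo, and in YT-iKO from 13.3 to 41.2 CPM to 48.3 to 105.5 CPM. Without Lcn2 the other 9 markers summed to 6.80 to 8.77 CPM in CTRL sham, 5.29 to 23.2 CPM in CTRL MCAo, 7.30 to 28.4 CPM in YT-iKO sham and 1.41 to 23.8 CPM in YT-iKO MCAo. In YT-iKO MCAo replicates 1 and 4, which had the highest Lcn2, these 9 summed to 7.73 and 1.41 CPM. The sum was highest in YT-iKO sham 3, at a receptor density of 0.569 CPM per kilobase. It was lowest in YT-iKO MCAo 4, at a density of 0.0308 CPM per kilobase. The 9 markers thus do not measure leukocytes apart from the even background, whose part in them was not tested. Cells with CD45, a leukocyte surface protein, had been gated out in the sort. The part of these markers in the acute-phase values was not tested. No marker was at 0 in all libraries.

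For leukocyte adhesion 10 of 11 genes were ranked and 7 rose and 1 fell in the mean response (9.69% and 5.66% over all 9123 genes), with median changes of 0.47 in CTRL and 0.40 in YT-iKO and a median interaction of -0.06. Icam1 and Vcam1, the ligands of leukocyte integrins, changed by 0.64 and 0.51 in CTRL and by 0.60 and 0.33 in YT-iKO. The NF-kappaB feedback list had 9 of 12 genes ranked and 7 that rose (9.69% over all genes), with medians of 0.41 and 0.45 and interactions between -0.11 and 0.17. In 21 of 22 interferon-stimulated genes the median interaction was 0.03, with 13 above 0, and Ifit3 was the only member to rise in the mean response. Ifit2, with the highest value of that list (0.40, SE 0.34), stood at 44.6, 114, 114 and 72.05 CPM in YT-iKO MCAo against 45.0 to 83.2 CPM in CTRL MCAo. The 12 genes of MHC class I presentation had a median of 0.08 and none that was called in the mean response. Relative to all genes, the adhesion median turned from -0.05 to 0.17 and the interferon median from 0.03 to -0.39 without the 3 libraries of highest receptor density, and the interferon median was also below 0 with DESeq2 and with factors from all genes tested.

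Lists of YAP/TAZ biology were read by genotype, by response and by interaction. Of 22 YAP/TAZ targets 18 were ranked and 9 of them were lower in YT-iKO on average, against 3.91% of all 9123 genes. In the mean MCAo response 5 rose and 1 fell, against 9.69% and 5.66% over all genes. The median interaction was -0.01, with no stable direction. Relative to all genes it was above 0 in 18 of 29 alternatives, DESeq2 and factors from all genes tested among them, and ran from -0.03 to 0.07 with 1 library left out. Ccn1, a matricellular protein and a classical YAP target, had the lowest value, -0.77 (SE 0.84), with 26.5 to 63.2 CPM in CTRL MCAo and 3.45 to 23.1 CPM in YT-iKO MCAo. Edn1, the vasoconstrictor endothelin 1, had the highest, 0.50 (SE 0.27). It stood at 90.7 to 107 CPM in CTRL sham and 29.7 to 34.4 CPM in YT-iKO sham, and at 103 to 170 CPM and 42.4 to 101 CPM after MCAo, so that the genotypes were apart in both conditions. Angpt2, the destabilising ligand of the Tie2 receptor, was the list's only member with an unadjusted p under 0.05 (0.0305), at 0.47 (SE 0.20). The 15 ranked members of the Hippo core and TEAD list lay between -0.13 and 0.27 and all 15 intervals lay within -1 to 1.

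The 29 extracellular genes were picked by the study on these same libraries for a genotype difference after MCAo, so their direction is not independent evidence. Of these 16 had a mean CPM of at least 10, 14 of which were lower and 1 higher in YT-iKO on average (3.91% and 1.86% over all genes), and their median interaction was 0.02. Vash1, an inhibitor of angiogenesis, and F5, coagulation factor V, were lower in YT-iKO by 1.41 and 1.70 on average on the log2 scale and had interactions of 0.25 (SE 0.20) and 0.55 (SE 0.37).

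For the vascular lists of this paragraph the medians lay between -0.04 and 0.06, with all libraries included. For VEGF and angiopoietin-Tie signalling (11 of 14 ranked, median 0.04), Nrp2, a coreceptor of VEGF-C, rose by 0.75 in YT-iKO against a change of 0.33 in CTRL, an interaction of 0.43 (SE 0.17, unadjusted p = 0.0227). Tight and adherens junctions (13 of 14, median -0.04) included Cldn5 at 0.02, Ocln at -0.11 and Cdh5 at 0.07, and Wnt barrier signalling (15 of 17) had a median of -0.0035. Among 15 solute and drug transporters, with a median of -0.04, Slc16a1, the lactate carrier MCT1, and Slc22a8, an organic anion transporter, had the lowest values, -0.42 (SE 0.23) and -0.37 (SE 0.18), and Abcb1a, the drug efflux pump, had 0.01. Plvap, the diaphragm protein of fenestrated endothelium, had 0.63 (SE 0.83) and rested on CTRL sham replicate 4, with 292 CPM against 20.2 to 45.9 CPM in the other CTRL sham libraries. Notch (median 0.04), BMP and TGF-beta (0.03), cholesterol synthesis (0.06), ER stress (0.04), cell cycle (0.05), tip cells (0.06), matrix proteases (-0.03) and immediate early genes (0.02) had no member with an unadjusted p under 0.05. The immediate early median relative to all genes was 0.03. It was below 0 in 13 of 29 alternatives, DESeq2 and factors from all genes tested among them, and it was -0.41 when YT-iKO MCAo replicate 1 was omitted and 0.28 when CTRL MCAo replicate 1 was omitted.

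The highest and lowest members of the other lists were all short of an unadjusted p of 0.05. In the Hippo list they were the DNA-binding partners Tead4 (0.27) and Tead2 (-0.13), in the interferon list the lowest was the ubiquitin-like Isg15 (-0.25), and in the NF-kappaB list they were the receptor Tnfrsf1a (0.17) and the adaptor Traf1 (-0.11). The MHC class I list ran from H2-T23 (-0.47) to H2-Q7 (0.72), both of a multigene family in which reads can be shared. Only 2 of 14 chemokines were ranked, Cx3cl1 (0.29) and Cxcl12 (0.01). In VEGF and Tie signalling they were Angptl4, an inhibitor of lipoprotein lipase (0.71), and the phosphatase Ptprb (-0.29), among tip cell genes the netrin receptor Unc5b (0.17) and the peptide Adm (-0.13), and in the Notch list the receptor Notch4 (0.21) and the ligand Dll1 (-0.37). BMP and TGF-beta signalling ran from the receptor Tgfbr1 (-0.14) to the coreceptor Eng (0.31), and Wnt barrier signalling from Notum, which inactivates Wnt ligands (-0.31), to the receptor Fzd4 (0.27).

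Barrier lists had Jam2 (0.10) and Marveld2 (-0.25) for junctions, Cav1, the coat protein of caveolae, as the lowest of transcytosis (-0.26) and Slc38a5, an amino acid carrier, as the highest transporter (0.25). For matrix they were Col15a1 (0.71), Col5a2 (-0.45), the protease Adamts9 (0.38) and the inhibitor Timp2 (-0.63), and for coagulation the lowest was Tfpi, the tissue factor pathway inhibitor (-0.17). Stress and metabolic lists ran from Ankrd37 (-0.54) to the glycolytic regulator Pfkfb3 (0.47) for hypoxia, from Trib3 (-0.30) to the transcription factor Xbp1 (0.44) for ER stress and from Fdft1 (-0.06) to Hmgcs1 (0.18) for cholesterol synthesis. The immediate early list ran from the nuclear receptor Nr4a1 (-0.55) to Klf6 (0.34), and the 4 ranked cell cycle genes from Mcm2 (-0.12) to Mcm3 (0.21), both parts of the replicative helicase.

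Matrix and coagulation lists held members called as higher after MCAo in each genotype tested alone, 4 collagens, laminins and nidogens in CTRL and 4 in YT-iKO, and 4 and 5 coagulation genes. Over all 9123 genes 4.17% were called as higher in CTRL and 3.96% in YT-iKO, and in the mean response 9.69% were higher and 5.66% lower. Of 17 collagens, laminins and nidogens 15 were ranked and 8 rose in the mean response, with median changes of 0.43 in CTRL and 0.52 in YT-iKO and a median interaction of 0.03. The pericyte markers, of which 8 were ranked and 4 rose in the mean response, had median changes of 0.53 and 0.49. All 10 of them summed to 777 to 1009 CPM in CTRL sham and 800 to 1424 CPM in CTRL MCAo, and to 631 to 904 CPM and 773 to 1219 CPM in YT-iKO. Their part in the matrix values was not tested. Fn1, fibronectin, changed by 0.92 and 1.08, and Nid1, which links laminin to collagen IV, by 0.98 and 0.94. In coagulation and fibrinolysis 9 of 14 were ranked and 5 rose, with a median interaction of 0.16. Relative to all genes that median was 0.17, it turned to -0.10 when YT-iKO MCAo replicate 1 was omitted, and it was 0.44 with the 3 libraries of highest receptor density omitted. Vwf, the von Willebrand factor that tethers platelets, changed by 2.02 and 2.18. For hypoxia and glycolysis 14 of 18 were ranked, 6 rose and 1 fell, and Hif1a, the oxygen-regulated transcription factor, changed by 0.90 in CTRL and 0.63 in YT-iKO, an interaction of -0.27 (SE 0.14).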

How the data were processed

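RNA of sorted bECs was amplified with a SMART-Seq Ultra Low Input kit and sequenced in paired-end mode. Per the submitters' processing notes reads were mapped with STAR 2.7.8a to GRCm38, and the authors deposited a table of unnormalized counts, with 1 column for each library. The counting program and its use of strand are not given in the sources used here. The submitters' processing notes also name DESeq2. Positions and exon overlaps were read from GENCODE M21 on GRCm38, which held no position for 142 genes.

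All 16 libraries were fitted in R 4.3.3 with edgeR 4.0.16 (quasi-likelihood test, 1 term per group, TMM factors estimated on those 9123 genes whose mean reached 10 CPM). filterByExpr (minimum count 10, minimum total count 15) left 31085 genes, and the Benjamini-Hochberg adjustment ran over all of them. An adjusted p under 0.1 was called. CPM in the text are TMM-scaled except the mean CPM of the ranking limit. The script was checked on simulated counts with 200 changed genes. Those counts held no difference in background between libraries. The check therefore bears on the script and not on how often a difference would be called in these data. Each p-value measures the spread between these pools.

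Named genes were the 10 with the smallest interaction p in each direction, Yap1, Wwtr1 and 6 genes whose response to MCAo the study describes by genotype, plus the highest and lowest member of gene lists. The members and lists were chosen with earlier results of these data known. The genes with the largest mean response, genotype difference or interaction were added after their values were seen.

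Alternatives were TMM factors from all genes, RLE factors, DESeq2 1.42.0, limma-voom 3.58.1 with sample quality weights, no filter, a fit of the 9123 genes only, a robust prior, an adjusted p under 0.05, a replicate block, the log2 receptor density as a covariate, and each library left out in turn. Chosen after seeing the data were limma-trend on log2(CPM + 1), the receptor covariate over the 9123 genes only, leaving out the 3 libraries of highest receptor density, and log2 Xist as a covariate. Each fit that left out libraries otherwise used all of them, and no value was imputed. A few results are not reported here.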

Additional observations from a re-analysis of the deposited data

Results flagged for a closer look

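Over the 28 genes named by rule and 4 groups, 112 groups of 4 libraries were searched for a library far from the other 3, and 5 had one. Chance alone flags about 5% of such groups. Zfp46 stood at 81.27 CPM in CTRL MCAo replicate 1 against 65.81 to 68.08 CPM in the others of the group. Blzf1 stood at 19.29 CPM in YT-iKO MCAo replicate 1 against 23.32 to 23.61 CPM. Ppp2r5a stood at 291.5 CPM in CTRL MCAo replicate 4 against 247.6 to 248.2 CPM. Src stood at 15.47 CPM in YT-iKO sham replicate 1 against 14.53 to 14.68 CPM, and Yap1 at 114.7 CPM in CTRL MCAo replicate 4 against 100.5 to 102.5 CPM.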

How the results depend on the processing

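The number of genes called for the interaction was 0 of 31085 in the main analysis and in 27 of 30 alternatives, and it was 1 in the rest: Podn with the receptor covariate, and Arhgap20 without the 3 libraries of highest receptor density (YT-iKO MCAo 2 and 3, YT-iKO sham 3) and without YT-iKO MCAo replicate 2. Leaving out 1 library at a time gave 0 to 1 called genes, both over all genes tested and over the 9123. Over the 9123 genes it was 0 in 28 of 30 alternatives, and Arhgap20 was the 1 gene called without the 3 libraries and without YT-iKO MCAo replicate 2. Genes with an unadjusted p under 0.05 numbered 129 of the 9123 in the main analysis, 567 without the 3 libraries, 22 with TMM factors from all genes and 20 with DESeq2. Over all genes tested they numbered 199, against 857 with the receptor covariate and 3485 without the 3 libraries, and the cause was not tested. Without the 3 libraries YT-iKO MCAo held replicates 1 and 4 only. Single libraries moved these counts: omitting YT-iKO sham 2 gave 298 of the 9123 genes and 436 over all, omitting YT-iKO MCAo 2 gave 217 and 505, and omitting YT-iKO MCAo 3 gave 189 and 309. The number called for the mean MCAo response was 252 with TMM factors from all genes and 555 with DESeq2. It was 1061 to 1502 when 1 library was left out, and 1864 without the 3 libraries. The median interaction of those genes relative to all was -0.0016 and ran from -0.0191 to 0.0144 over the left-out libraries. With log2 Xist as a covariate 0 genes were called and 131 of the 9123 had an unadjusted p under 0.05. Yap1 turned to 0.0075 with TMM factors from all genes, which moved the median of the 9123 by 0.1457 (DESeq2 by 0.1017), and Sting1 to 0.0444 without the 3 libraries. Of the 28 single genes refitted under the alternatives, the other 26 kept their direction in every fit that gave them a value, and the members named from the gene lists alone were not refitted. Relative to all genes, list medians without the 3 libraries were -0.3856 for interferon-stimulated genes (0.033 with all libraries), 0.1705 for leukocyte adhesion (-0.0529) 0.6842 for the acute-phase list (0.1257), 0.5632 for complement (0.2528), 0.3377 for tip cells (0.0686), 0.3201 for collagens, laminins and nidogens (0.0362), 0.214 for hypoxia and glycolysis (0.0139), 0.0596 for tight and adherens junctions (-0.0366) and -0.0825 for cholesterol synthesis (0.0681).

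Deviations of same-numbered libraries correlated above 0.1 in 19 of 24 pairs (median 0.2418, against -0.0813 for 72 other pairs), and 9 of 16 libraries correlated best with their own number, a hint from the data of something shared. The numbers were not used as pairs because the labels tie them to no common animal, litter or day and not every pair was above 0.1, so the standard errors given are those without the block. With the replicate block 0 genes were called, and 247 of all genes (199 without it) and 163 of the 9123 (129 without it) had an unadjusted p under 0.05.

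Of the 9123 genes, the 427 whose interval reached past 1 or -1 had a median of 16.2 CPM, against 38.5 CPM for the others, but well counted genes whose libraries lay far apart, such as Lrg1, were among them. The part of depth in the width of the intervals was not tested, and nothing is said here of a response difference in genes below the ranking limit other than those named.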
